A study of Mus musculus with 6 samples.

Results

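The 4 genes described here are Nr1h4, which encodes the bile acid receptor FXR, Nr0b2, which encodes the repressor SHP, and Fgfr4 and Klb, which encode the receptor pair for the gut hormone FGF15. They were taken by gene symbol from the 39179 gene identifiers of each count file. All 4 passed the filter on low counts and were among the 11375 genes tested. The samples were livers of C57BL/6J mice (strain tag C57BL/6) that ate a diet drawing 60% of its energy from fat for 21 weeks, starting when the animals were 5 weeks old. The obese animals had been sorted by the look of stained liver sections into isolated steatosis (fat storage alone, 3 libraries) and nonalcoholic steatohepatitis (NASH, fat storage with inflammation and cell injury, 3 libraries). Both groups thus share strain, diet and feeding time, and the labels separate them by histological class alone. No lean group was analysed here, and the sex of the mice is not given in the labels. Separate animals per library are implied rather than stated, so p-values measure the spread between these samples.

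FXR is a nuclear receptor that binds bile acids in hepatocytes and gut cells and pairs with RXR on DNA. In the liver it induces Nr0b2, and SHP, which has no DNA-binding domain of its own, then represses genes driven by the nuclear receptors LRH-1 and HNF4A, among them Cyp7a1, the rate-limiting enzyme of bile acid synthesis. In the gut FXR induces FGF15, which travels to the liver, binds FGFR4 together with its co-receptor beta-Klotho (Klb) and represses Cyp7a1 through kinase signalling. FXR also induces Abcb11, the pump that exports bile salts. The study looked for factors behind the passage from steatosis to NASH, and the comparison of the groups shows how the transcripts of this loop differed between them.

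On GRCm38 with the GENCODE M21 annotation, Nr1h4 (ENSMUSG00000047638) lies on chromosome 10 from 89454234 to 89533585 on the minus strand and has 11 exon blocks. Nr0b2 (ENSMUSG00000037583) lies on chromosome 4 from 133553376 to 133556536 on the plus strand, a compact gene of 2 exons. Fgfr4 (ENSMUSG00000005320) lies on chromosome 13 from 55152640 to 55168759 and Klb (ENSMUSG00000029195) on chromosome 5 from 65348314 to 65384007, both on the plus strand, with 19 and 5 exon blocks. None of the 4 shares exon positions with another gene of that annotation. The annotation release behind the deposited counts is not given, so whether a neighbour touches these counts was not tested. The promoter windows of Nr0b2, the most variable of the 4 transcripts, and Fgfr4, which had the largest difference between the groups, are shown because the results turn on these genes. They come from RefSeq on GRCm38.p6, run from 250 bases before the start site to 50 after it on the gene's strand, and cover chr4:133553126-133553425 (plus strand) and chr13:55152568-55152867 (plus strand). Capitals mark the letters TCAAGG, the core bound by LRH-1, and TATAAA, the TATA box.
Nr0b2: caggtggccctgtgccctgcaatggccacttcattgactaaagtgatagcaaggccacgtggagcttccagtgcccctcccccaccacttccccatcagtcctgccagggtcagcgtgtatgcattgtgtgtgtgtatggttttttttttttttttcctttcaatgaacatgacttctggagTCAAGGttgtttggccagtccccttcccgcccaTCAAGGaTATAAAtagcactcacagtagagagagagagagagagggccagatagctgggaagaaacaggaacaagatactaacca
Fgfr4: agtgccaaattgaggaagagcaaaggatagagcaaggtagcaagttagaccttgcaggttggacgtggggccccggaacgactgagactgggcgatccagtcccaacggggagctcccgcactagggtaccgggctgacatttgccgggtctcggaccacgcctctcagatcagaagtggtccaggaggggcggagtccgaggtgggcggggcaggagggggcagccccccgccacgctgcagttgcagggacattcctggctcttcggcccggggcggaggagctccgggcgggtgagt

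The Nr0b2 window held TCAAGG at 2 places, beginning 68 and 35 bases before the start site, and TATAAA beginning 28 bases before it. No match to either was found in the windows of the other 3 genes when both strands were searched. The Nr1h4 window, chr10:89506609-89506908 on the minus strand, lies inside the gene span given above. It is not at the outer start of that span, at 89533585, so the sequence there was not searched. Over 32851 promoter windows of the same length, 14.4% held TCAAGG and 13.6% held TATAAA. The half-site AGGTCA, which many nuclear receptors bind, was found in 16.3% of windows, once in that of Nr1h4 and in none of the other 3. The Fgfr4 window had a GC content of 65.3% and 20 CG dinucleotides, and the Nr0b2 window 49.7% and 3. The windows of Klb and Nr1h4 had GC contents of 48.3% and 45.7%, against a median of 52.7% over all windows. These are matches of letters in a short window and do not show binding.

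Total gene counts ranged from 13909238 to 18002095 per library, of which 62.0% to 83.9% came from mitochondrially encoded genes. Steatosis 2 and NASH 3 stood apart, with 8.96% and 22.3% of counts at 4 loci of rRNA-like sequence, against at most 1.06% elsewhere. Counts of all other genes ranged from 3378730 to 5149189 in steatosis and from 2185922 to 2719869 in NASH, without overlap. Levels are given in CPM, the count of a gene relative to a library size scaled with TMM factors, which are meant to correct for such differences in composition. These factors ran from 0.964 to 1.5 in steatosis and from 0.793 to 0.914 in NASH. Depth outside mitochondrial and rRNA-like genes and scaling thus differed along with the histological class and cannot be told apart from it. The 6 hepatocyte markers, Alb and Apoa1 among them, summed to between 10810 and 11620 CPM in steatosis and between 8982 and 11060 CPM in NASH. Of the 6, 0 were called, and 3 had log2 fold changes above 0 and 3 below. Alb (-0.40) and Ttr (-0.54) were lower and Apoa1 (0.50) higher in NASH without overlap between the groups. The 5 stellate cell and fibroblast markers summed to between 40.2 and 41.1 CPM in steatosis and between 24.2 and 27.8 CPM in NASH, and 1 of the 5, Dcn, was called lower and made up most of the difference, from a mean of 23.1 to 11.4 CPM. The other 4 were not called and were split in sign, with log2 fold changes of 0.39 for Des, 0.16 for Lrat, -0.30 for Reln and -0.50 for Col1a1. Sums of the cholangiocyte, macrophage, endothelial, lymphocyte and neutrophil markers overlapped between the groups. Of the 5 adipocyte markers, a check because fat also expresses Klb, Adipoq, Plin1 and Lep were at 0 in all 6 libraries, while the sum, nearly all of it Cfd, ran from 33.8 to 126.7 CPM in steatosis and from 11.8 to 41.1 CPM in NASH. Of the 4 gut markers, Fgf15 and Cdx2 were at 0 in all 6, and Fabp2, which was called lower, brought the sum to between 13.7 and 20.3 CPM in steatosis and between 7.43 and 10.7 CPM in NASH. In bulk tissue, fewer cells of a type and less RNA per cell cannot be told apart, and the part that cell makeup or library composition played in the results was not tested.

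In NASH Cyp7a1 fell to 0.191 of its steatosis level, and none of the 4 feedback transcripts passed the test in either direction. Fgfr4 came nearest, with a NASH level 2.00 times that of steatosis and no overlap between the groups. Nr1h4 stood somewhat lower in NASH, while Nr0b2 and Klb had higher means in NASH, set mainly by NASH 2. A gene was called when the quasi-likelihood test of edgeR gave an adjusted p (Benjamini-Hochberg, over all 11375 tested genes) under 0.05. Of the 4 members 0 were called, against 4.82% of all tested genes, made up of 1.49% called higher and 3.33% called lower in NASH. With library sizes of other genes and no TMM factor the calls over all genes were split 179 higher to 222 lower, against 169 to 379 here. Fgfr4 alone of the 4 had an unadjusted p under 0.05, as did 23.2% of all tested genes, and DESeq2, run as an alternative, called Fgfr4 while limma-voom called 0. For 1 of the 4, Fgfr4, all NASH libraries lay on 1 side of all steatosis libraries, as for 29.3% of all tested genes and 13.1% in the direction of higher in NASH, and this count is near the background.

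**Figure D1:**
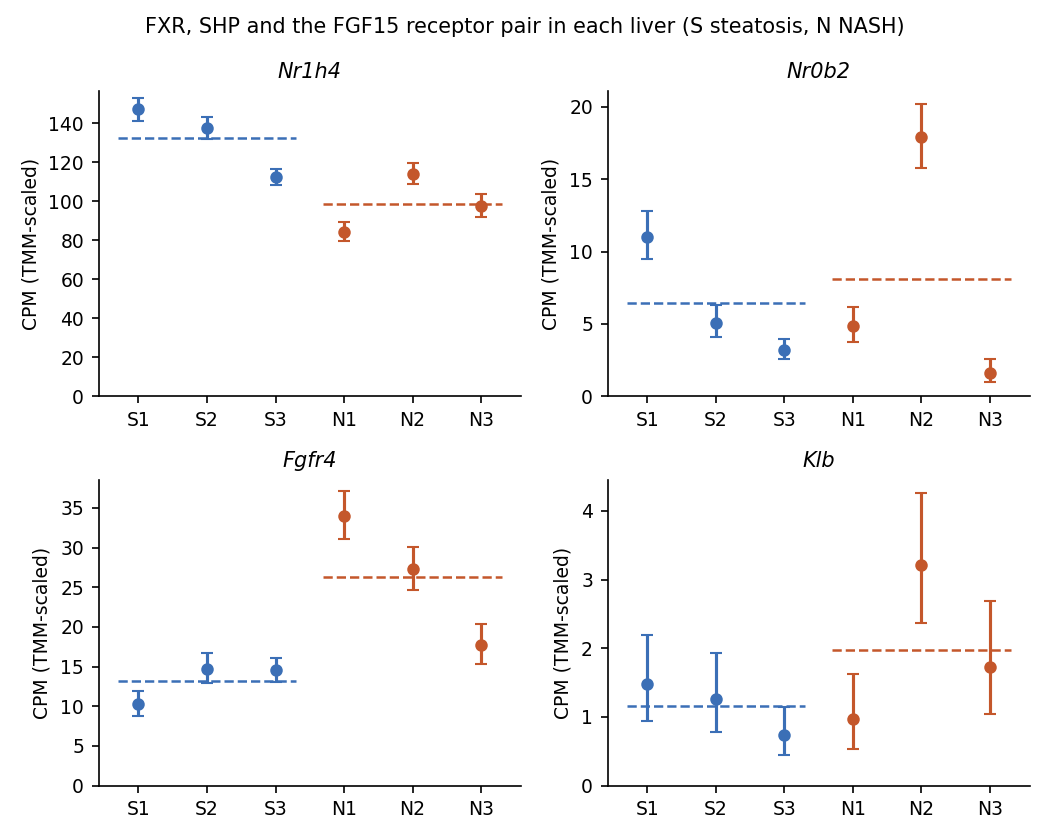
TMM-scaled CPM of the 4 genes in each library, with steatosis libraries S1 to S3 in blue and NASH libraries N1 to N3 in orange. Bars are exact 95% Poisson intervals of counting error and dashed lines are group means; Fgfr4 is the panel without overlap, from 10.3 to 14.7 CPM in steatosis and from 17.7 to 34.0 CPM in NASH.

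Nr1h4, the receptor at the head of the loop, was the most abundant of the 4. Its level was 147, 138 and 112 CPM in steatosis 1, 2 and 3 and 84.4, 114 and 97.7 CPM in NASH 1, 2 and 3. NASH 2 lay just above the lowest steatosis library, so the groups overlapped. The mean went from 132 ± 18.0 to 98.7 ± 14.9 CPM (SD, n = 3 each), a log2 fold change of -0.42 (SE 0.23, adjusted p = 0.298 by edgeR). The 95% interval of the fold ran from 0.526 to 1.06. Within groups Nr1h4 was steady, the highest library being 1.31 times the lowest in steatosis and 1.35 times in NASH.

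Nr0b2, the FXR target whose product SHP is among the repressors of Cyp7a1, differed far more between livers of the same group. It stood at 11.03, 5.09 and 3.19 CPM in steatosis 1, 2 and 3, on 179, 85 and 86 counts. In NASH 1, 2 and 3 it stood at 4.86, 17.9 and 1.63 CPM, on 70, 267 and 18 counts. NASH 2 was the highest and NASH 3 the lowest of all 6 libraries, so the NASH livers enclosed the whole steatosis range. The highest NASH library was 10.9 times the lowest, and the exact 95% Poisson intervals of the 3 NASH values (3.79 to 6.15, 15.8 to 20.2 and 0.969 to 2.58 CPM, counting error only) did not touch. The mean was 6.44 ± 4.09 CPM in steatosis against 8.13 ± 8.60 CPM in NASH (SD, n = 3 each), a log2 fold change of 0.37 (SE 0.68, adjusted p = 0.789 by edgeR). The 95% interval of the fold, from 0.459 to 3.66, spans large differences in both directions. Without NASH 2 the log2 fold change turned to -0.92 (adjusted p = 0.395 by edgeR). NASH 2 also had the largest mitochondrial share (83.9%) and NASH 3 the largest rRNA-like share, whose part in the spread was not tested.

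The spread of Nr0b2 was large among all genes. The SD of log2 CPM between livers of 1 group, pooled over both groups, was 1.34 for Nr0b2, against a median of 0.31 over the 11375 tested genes, and 62 of these had a larger one. It was larger than in each of the 500 genes nearest to it in mean level, whose median was 0.25. The spread was large in both groups, with an SD of 0.88 in steatosis (percentile 97.4 of tested genes) and 1.68 in NASH (percentile 99.6). For Nr1h4, Fgfr4 and Klb the pooled SD was 0.21, 0.39 and 0.66, at percentiles 22.9, 67.2 and 91.6. Among the 500 genes nearest in level, Klb stood at percentile 86.2 and Fgfr4 at 84.8. These are descriptions of 6 libraries, without a test.

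**Figure D2:**
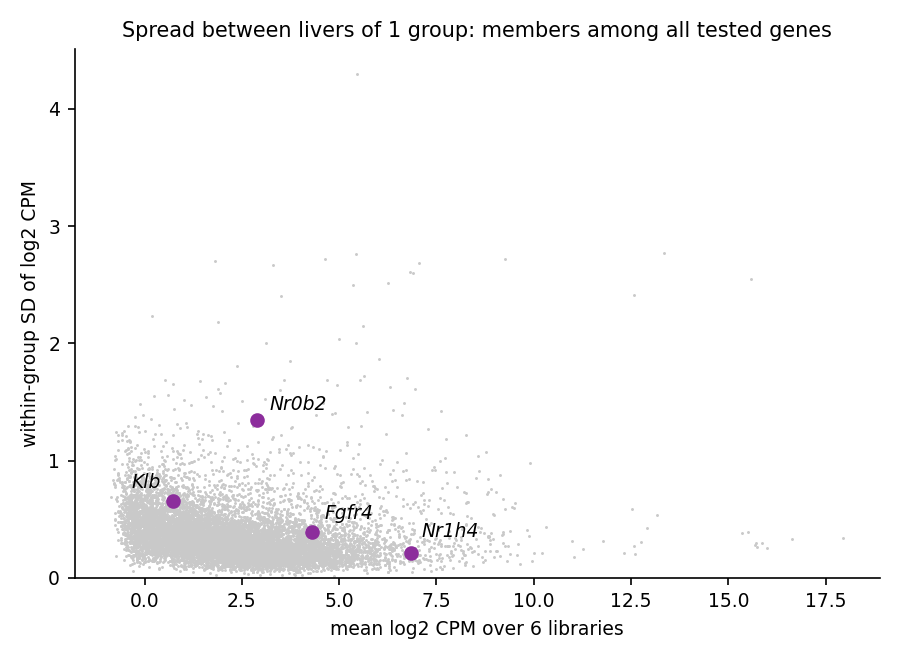
Each grey point is 1 of 11375 tested genes, placed by its mean log2 CPM over the 6 libraries and the pooled within-group SD of its log2 CPM, with the 4 genes in purple. Nr0b2, with an SD of 1.34, sits above the cloud of genes at its level, while Nr1h4 and Fgfr4 lie within it at 0.21 and 0.39.

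Set against its own inducer within the same liver, Nr0b2 also varied widely. Per kb of exon, Nr1h4 exceeded Nr0b2 by 6.56, 13.3 and 17.3 times in steatosis 1, 2 and 3 and by 8.53, 3.14 and 29.4 times in NASH 1, 2 and 3. This ratio does not depend on how libraries were scaled. The log2 ratio of Nr0b2 to Nr1h4 was -3.51 ± 0.721 in steatosis against -3.19 ± 1.60 in NASH (SD, n = 3 each), a difference smaller than the spread (two-sided exact permutation p = 0.9, and 0.9 adjusted over the 2 ratios tested). With 3 libraries against 3 the smallest p this test can give is 0.1.

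Fgfr4 encodes the FGF receptor that hepatocytes use to read FGF15. Its level was 10.3, 14.7 and 14.5 CPM in steatosis 1, 2 and 3 and 34.0, 27.3 and 17.7 CPM in NASH 1, 2 and 3. Every NASH library lay above every steatosis library, though NASH 3, at 17.7 CPM, lay close to the highest steatosis value. The mean was 13.2 ± 2.51 CPM in steatosis against 26.3 ± 8.18 CPM in NASH (SD, n = 3 each). The log2 fold change was 0.998 (SE 0.26, unadjusted p = 0.00296, adjusted p = 0.0543 by edgeR), and the 95% interval of the fold ran from 1.34 to 2.97. Fgfr4 thus missed the threshold by little, and the choice of method decided the call. It was higher in NASH in all 16 alternative fits and passed in 5 of them, with DESeq2 (adjusted p = 0.0123), without a filter on low counts (adjusted p = 0.002 by edgeR), with upper-quartile factors (0.0497), with mitochondrial and rRNA-like genes removed before scaling (0.0499) and without NASH 3 (0.0371). The fit without a filter also gave far smaller adjusted p-values for some other genes, and larger ones for others. For Cyp7a1 that fit gave 3.57e-18 against 0.00809 by edgeR, on log2 fold changes of -2.42 and -2.39. For Nr1h4 and Rxra it gave 0.433 and 0.669, against 0.298 and 0.547 by edgeR. The pass of Fgfr4 in that fit therefore carries less weight. Without NASH 1 the log2 fold change was 0.77 and without steatosis 1 it was 0.86, with adjusted p = 0.145 and 0.181 by edgeR.

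Klb, the co-receptor without which FGFR4 does not respond to FGF15, was the least abundant of the 4. It was counted 24, 21 and 20 times in steatosis 1, 2 and 3 and 14, 48 and 19 times in NASH 1, 2 and 3. In CPM these were 1.48, 1.26 and 0.742 in steatosis and 0.973, 3.21 and 1.73 in NASH. NASH 2 stood above the other 5 libraries, and NASH 1 lay inside the steatosis range. The mean was 1.16 ± 0.378 CPM in steatosis against 1.97 ± 1.14 CPM in NASH (SD, n = 3 each), a log2 fold change of 0.81 (SE 0.45, adjusted p = 0.317 by edgeR). Without NASH 2 it was 0.24 (adjusted p = 0.807 by edgeR). The 95% interval of the fold, 0.872 to 3.50, covers both no difference and a large one.

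The balance of receptor and co-receptor varied from liver to liver. Per kb of exon, Fgfr4 exceeded Klb by 8.94, 15.0 and 25.1 times in steatosis 1, 2 and 3 and by 44.9, 10.9 and 13.2 times in NASH 1, 2 and 3. NASH 1 had the most Fgfr4 and the least Klb of the NASH libraries. The log2 ratio of Klb to Fgfr4 was -3.88 ± 0.741 in steatosis against -4.19 ± 1.09 in NASH (SD, n = 3 each, two-sided exact permutation p = 0.7, and 0.9 adjusted over the 2 ratios). Its sign of difference turned when steatosis 1 or NASH 1 was left out (0.06 and 0.32 against -0.31).

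Per kb of exon the order of levels was led by Nr1h4, with 57.4 ± 7.81 CPM per kb in steatosis against 42.9 ± 6.46 in NASH (SD, n = 3 each), and it stood above the other 3 in all 6 libraries. Nr0b2 followed with 5.69 ± 3.61 and 7.18 ± 7.60 CPM per kb, and Fgfr4 with 3.72 ± 0.708 and 7.43 ± 2.31. These neighbours could not be ordered, since Nr0b2 was the higher in steatosis 1, steatosis 2 and NASH 2 and Fgfr4 in the other 3 libraries. Klb was last in all 6, at 0.255 ± 0.0831 and 0.433 ± 0.251 CPM per kb.

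Among the FGF receptors, Fgfr4 and Fgfr3 carried most of the signal per kb of exon. Fgfr4 made up 49.4%, 50.5% and 48.5% of the summed level of the 4 receptors in steatosis 1, 2 and 3, and 64.5%, 60.4% and 46.7% in NASH 1, 2 and 3. The share in NASH 3 fell below every steatosis library, so the share, unlike the level, overlapped between the groups. These shares depend on dividing by all annotated exons of a gene together, 3.54 kb for Fgfr4 and 7.16 kb for Fgfr3. In CPM, Fgfr3 exceeded Fgfr4 in steatosis 1, 2 and 3 (13.25, 23.55 and 24.71 against 10.29, 14.74 and 14.51). It did so in NASH 3 as well (30.14 against 17.7 CPM), but not in NASH 1 or NASH 2. Fgfr1, the receptor through which FGF21 acts on fat and brain, stood at 3.31 ± 0.881 CPM in steatosis against 6.72 ± 2.17 in NASH (SD, n = 3 each; log2 fold change 1.02, SE 0.28, adjusted p = 0.0677 by edgeR). It was not called, although its groups did not overlap, and DESeq2 called it higher (adjusted p = 0.036). Fgfr3 had a log2 fold change of 0.48 (adjusted p = 0.267 by edgeR), also without overlap, and Fgfr2 one of 0.15 (adjusted p = 0.717 by edgeR). Unlike Fgfr4, Fgfr1, Fgfr2 and Fgfr3 share exon positions with other genes of GENCODE M21, so their counts may hold reads of a neighbour or have lost reads to it.

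**Figure D3:**
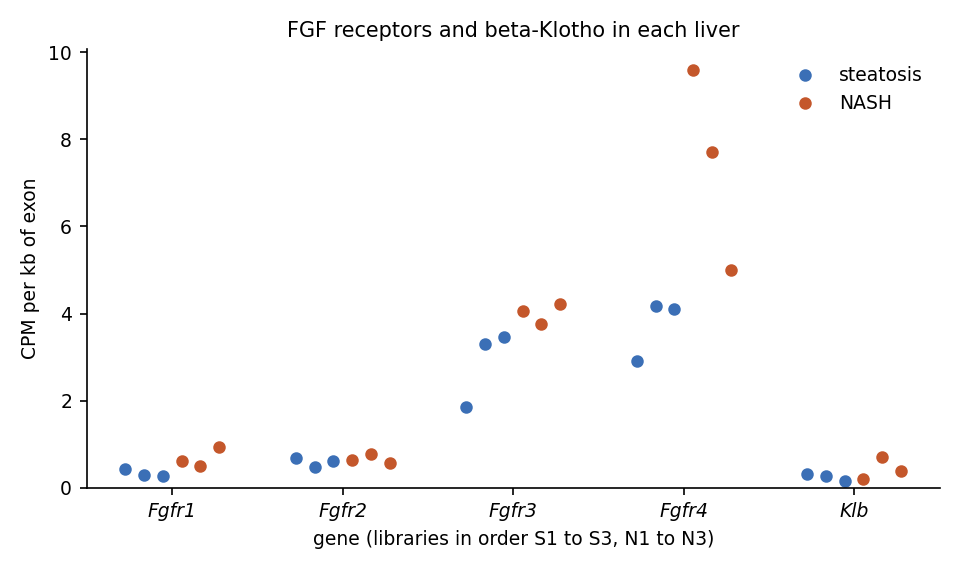
CPM per kb of exon of the 4 FGF receptors and Klb, with 1 point per library in the order S1 to S3 (steatosis, blue) and N1 to N3 (NASH, orange). Fgfr4 spans 2.91 to 4.16 in steatosis and 5.00 to 9.59 in NASH, and Klb stays at or below 0.707 in all 6.

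Of 29 listed genes of FGF receptor signalling (ligands, receptors, adaptors, kinases, feedback inhibitors and early targets), 25 were tested, 0 were called higher and 1 lower, with a median log2 fold change of -0.03, against 0.01 over all tested genes. The 1 call among 25 (4%) was near the 4.82% called over all tested genes. The gene called lower was Fgf1, a growth factor made in tissues, which went from 39.9, 29.8 and 21.5 CPM in steatosis 1, 2 and 3 to 11.9, 14.9 and 17.9 CPM in NASH 1, 2 and 3. Its log2 fold change was -1.03 (SE 0.26, adjusted p = 0.0493 by edgeR), a call at the edge that was lost in 12 of 16 alternative fits, among them those without steatosis 1, steatosis 2, NASH 1, NASH 2 or NASH 3 (adjusted p = 0.172, 0.134, 0.144, 0.129 and 0.0735 by edgeR). Fgf15 itself was not detected in any library. At a one-sided level of 95%, a count of 0 allows up to 3 counts, or between 0.111 and 0.272 CPM depending on the library, and FGF15 is a hormone of the gut, so this says nothing of its level in blood. Fgf21, a liver hormone that also needs Klb, stood at 3.64, 4.32 and 1.89 CPM in steatosis and 7.92, 7.63 and 2.09 CPM in NASH (log2 fold change 0.88, adjusted p = 0.266 by edgeR). NASH 3 lay inside the steatosis range.

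Among genes known to be repressed through SHP or FGF15, Cyp7a1 alone passed the test. Of 5 listed and tested, 1 fell, 0 rose and 4 did not pass, with a median log2 fold change of -0.68, against 0.01 over all tested genes, of which 3.33% were called lower. Cyp7a1 went from 14.1, 17.0 and 15.0 CPM in steatosis 1, 2 and 3 to 1.25, 4.35 and 3.18 CPM in NASH 1, 2 and 3. Its level fell by 2.39 on the log2 scale (SE 0.35, adjusted p = 0.00809 by edgeR), and the call held in 15 of 16 alternative fits and was lost in the 4 libraries with few rRNA-like reads (adjusted p = 0.0744 by edgeR). Cyp8b1, the enzyme that makes cholic acid, stood at 77.7, 40.2 and 32.4 CPM in steatosis and 14.7, 49.8 and 6.63 CPM in NASH (log2 fold change -1.07, SE 0.60, adjusted p = 0.314 by edgeR), and passed without NASH 2 (-2.21, adjusted p = 0.0487 by edgeR). Its libraries ran in the same order as those of Nr0b2 within each group, with steatosis 1 and NASH 2 highest and steatosis 3 and NASH 3 lowest. SHP is known as a repressor of Cyp8b1, and within each group the livers with more Nr0b2 transcript were those with more Cyp8b1 transcript. This order of 3 libraries a group was noticed in the data and not tested, and it was not particular to the pair. Hnf4a ran in it too, with 105.2, 100.7 and 92.2 CPM in steatosis 1, 2 and 3. In NASH 1, 2 and 3 Hnf4a stood at 102.5, 110.9 and 91.88 CPM, and Apoa1 shared the order in both groups. The Cyp7a1 values followed a different order, close together in steatosis (SD of log2 CPM 0.13) and lowest in NASH 1. NASH 2 held the most Nr0b2, Cyp8b1 and Cyp7a1 transcript within NASH.

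**Figure D4:**
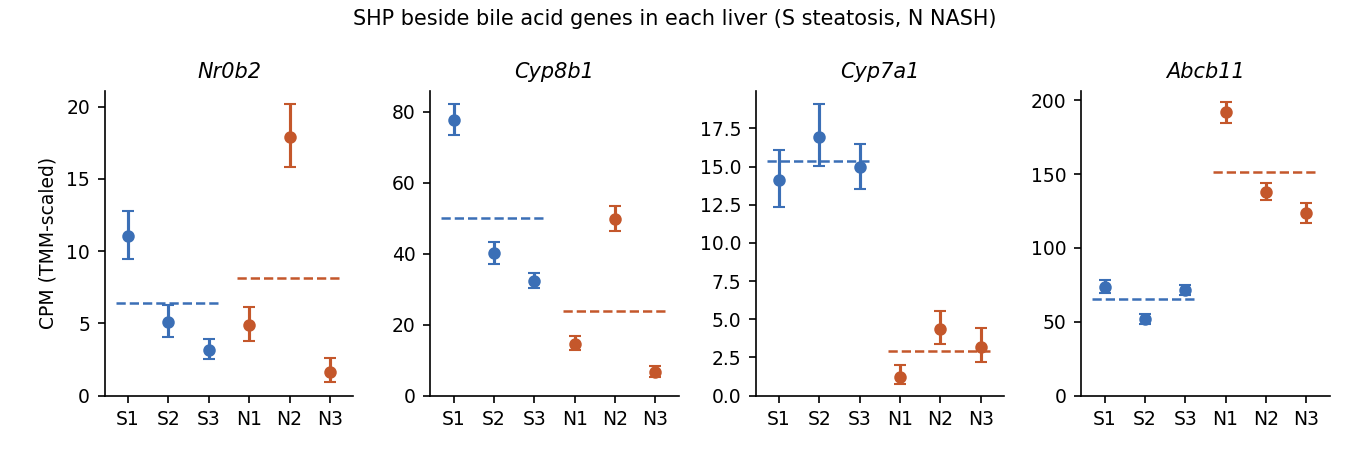
TMM-scaled CPM of Nr0b2, Cyp8b1, Cyp7a1 and Abcb11 in each library (S steatosis, blue; N NASH, orange), with exact 95% Poisson intervals of counting error and dashed group means. Nr0b2 and Cyp8b1 share their order of libraries within each group, an order that other genes such as Hnf4a also have. Cyp7a1 (at most 4.35 CPM in NASH) and Abcb11 (at least 123 CPM in NASH) separate the groups.

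Of the genes that FXR is known to induce, Abcb11 alone passed the test. Of 14 listed, 12 were tested, 1 rose, 0 fell and 11 did not pass, with a median log2 fold change of -0.36 and 9 of the 12 below 0, against a median of 0.01 and 1.49% called higher over all tested genes. Of the 12, 6 had an unadjusted p under 0.05, beside 23.2% of all tested genes. Abcb11, the bile salt export pump, went from 73.7, 51.7 and 71.5 CPM in steatosis 1, 2 and 3 to 192, 138 and 123 CPM in NASH 1, 2 and 3. It rose by 1.203 on the log2 scale (SE 0.26, adjusted p = 0.0307 by edgeR), a call lost without steatosis 1, steatosis 2, NASH 1 or NASH 2 (adjusted p = 0.0805, 0.135, 0.0872 and 0.059 by edgeR) and without both libraries with many rRNA-like reads (0.156). Its counts could include reads of 2 predicted genes on the opposite strand, with which it shares 155 exon bases. Baat and Slc27a5, which conjugate bile acids to amino acids, had log2 fold changes of -0.50 and -0.64 (adjusted p = 0.193 and 0.104 by edgeR), with no overlap between the groups but no call. Fetub stood likewise at -0.72 and Pltp, a lipid transfer protein whose exons overlap Ctsa, on the other side at 0.66 (adjusted p = 0.124 and 0.137 by edgeR), both without overlap between the groups. The lowest log2 fold change of the list was that of Vldlr, at -1.17 (adjusted p = 0.125 by edgeR), whose groups overlapped. Slc51a and Slc51b, the basolateral bile acid exporter that FXR can switch on, were at 0 in all 6 libraries, and parts of their exons overlap Pcyt1a and Rasl12 on the opposite strand.

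**Figure D5:**
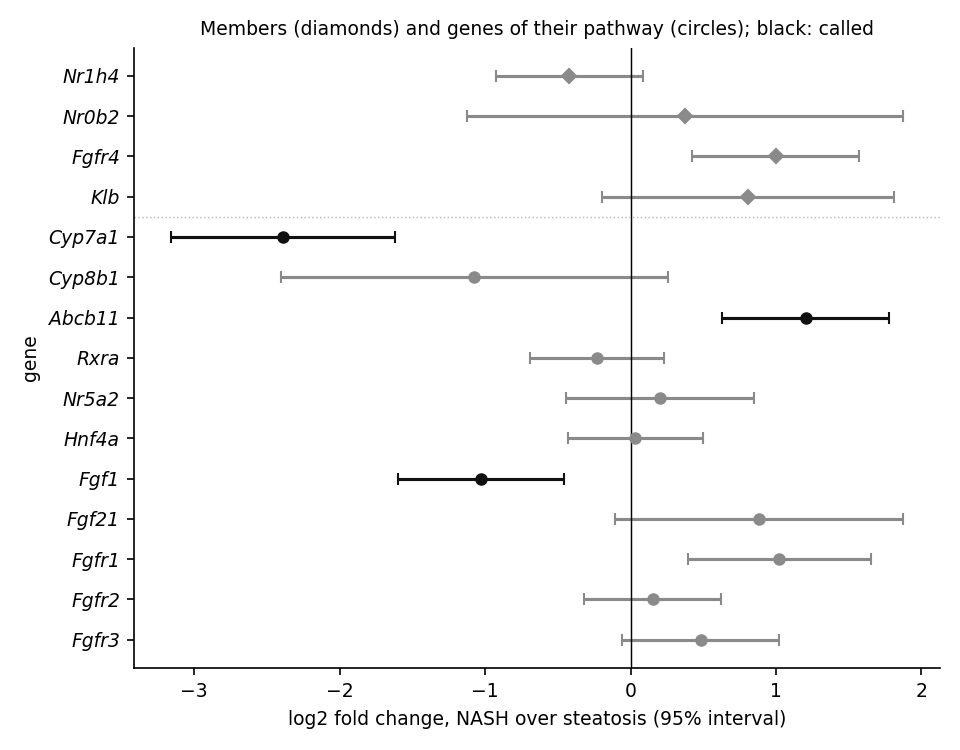
Log2 fold changes of NASH over steatosis with 95% intervals from the edgeR fit, for the 4 genes (diamonds) and selected genes of their pathway (circles), with called genes in black. The interval of Fgfr4 (0.42 to 1.57) lies above 0 although its adjusted p of 0.0543 missed the threshold, and that of Nr0b2 (-1.12 to 1.87) is the widest.

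Of 23 listed receptor partners, coactivators and corepressors with which FXR and SHP act, 21 were tested and 0 were called. For a list of this size that count is near the background of 4.82% called over all tested genes. The median log2 fold change of the list was 0.20, against 0.01 over all tested genes. By edgeR 2 of them, the corepressor genes Gps2 and Hdac1, had an unadjusted p under 0.05, beside 23.2% of all tested genes, and neither passed (adjusted p = 0.0886 and 0.196). By the other tools, DESeq2 and limma-voom called 0. Rxra, the obligate partner of FXR, had a log2 fold change of -0.23 (SE 0.21, adjusted p = 0.547 by edgeR), and Hnf4a, which drives Cyp7a1, one of 0.034 (SE 0.21, adjusted p = 0.944 by edgeR). Nr5a2, the LRH-1 gene, stood at 3.94, 4.50 and 6.79 CPM in steatosis 1, 2 and 3 and 5.00, 4.49 and 8.35 CPM in NASH 1, 2 and 3 (log2 fold change 0.20, SE 0.29, adjusted p = 0.726 by edgeR). LRH-1 is known to activate Nr0b2, and in both groups the library with the most Nr5a2 was the one with the least Nr0b2, again an order seen in the data and not tested. Apob and Fgb were likewise highest in steatosis 3 and NASH 3.

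Genes whose log2 CPM ran most nearly in parallel with each of the 4 were taken by the highest Pearson correlation over the 6 libraries among 7955 candidates. They were Slc6a9, Vdac1 and Ndufa10 for Nr1h4 (r from 0.989 to 0.997), Sgk2, Ftl1 and Rbfa for Nr0b2 (0.979 to 0.986), Soat2, Vps52 and Stx4a for Fgfr4 (0.993 to 0.998) and Zc3h14, Lrrc40 and Synrg for Klb (0.977 to 0.994). With so many candidates and 6 points, which share 2 groups and 1 scaling, such values are a description of likeness only. None of these 12 genes passed the test between the groups by edgeR, beside 4.82% of all tested genes. They were chosen for their likeness to 4 genes that were not called, so the absence of calls among them is no separate result. Sgk2, nearest to Nr0b2, stood at 21.38, 12.89 and 10.98 CPM in steatosis and 15.5, 25.3 and 7.81 CPM in NASH. Its order of libraries within each group was that of Nr0b2, which its choice by correlation favours, and its range was narrower.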

How the data were processed

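Liver RNA of 3 steatosis and 3 NASH libraries was sequenced from polyadenylated RNA as paired reads, per the labels' protocols. The authors deposited raw counts of reads per Ensembl gene, made with TopHat2 and HTSeq on mm10 (GRCm38), per the submitters' processing notes. For versions, annotation release, strand setting and the treatment of shared reads: not given in the sources used here. A symbol was found for 37693 of 39179 identifiers. Total counts are given above, and the 4 genes held between 14 and 3026 counts per library. Poisson intervals cover counting error only.

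Counts were analysed in R 4.3.3 with edgeR 4.0.16 (default filter on low counts, TMM factors, quasi-likelihood test, no covariates, Benjamini-Hochberg adjustment, threshold 0.05). The SE and interval of a log2 fold change were derived from its size and F statistic. Log2 CPM used a prior count of 2, and within-library ratios used 0.5 added counts and exact permutation tests. CPM per kb divides by the union of annotated exons. Alternatives were DESeq2 1.42.0, limma-voom (limma 3.58.1), other scalings and filters, the replicate number as a block and left-out libraries.

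Named genes were the 4 members, Cyp7a1, Cyp8b1, called genes of 4 pathway lists, a fixed set of other members of these lists, and for each member the 3 genes with the highest correlation among genes averaging 1 or more in log2 CPM. Baat, Slc27a5, Slc51a, Slc51b, Fetub, Pltp, Vldlr, Gps2, Hdac1 and single marker genes were chosen after their values were seen. The members and lists were chosen with earlier results of these data known.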

Additional observations from a re-analysis of the deposited data

How the results depend on the processing

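Of the 4 genes, Nr1h4 was lower and Fgfr4 and Klb were higher in NASH in all 16 alternative fits, and no alternative called Nr1h4, Nr0b2 or Klb. Fgfr4 passed with log2 fold changes of 1.03 (upper-quartile factors), 1.004 (mitochondrial and rRNA-like genes removed before TMM), 0.97 (no filter on low counts) and 1.01 (DESeq2), and ranged from 0.77 to 1.22 with 1 library left out. Nr0b2 ranged from -0.92 to 1.02 with 1 library left out. The Nr0b2 to Nr1h4 ratio then ranged from -0.45 to 1.15 and the Klb to Fgfr4 ratio from -0.69 to 0.32. The cause of these shifts was not tested. Deviations of same-numbered libraries correlated at 0.035, -0.012 and 0.071, and not every library correlated best with its own number. Replicate numbers thus gave no clear sign of pairing, though correlations over so few libraries cannot exclude it. With the replicate number as a block, 153 genes were higher and 313 lower, Nr0b2 turned to -0.034 (edgeR adjusted p = 0.977) and the Fgf1 call was lost.

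Over all genes 169 were higher and 379 lower in the comparison as reported, 535 and 912 without a filter on low counts, 300 and 512 with DESeq2, 179 and 222 with library sizes of other genes and no TMM factor, and 17 and 19 without the 2 libraries with many rRNA-like reads. With 1 library left out they ranged from 29 to 170 and from 77 to 298, and the part that the smaller number of libraries played was not tested. Library sizes of other genes with no TMM factor moved the median over all tested genes by 0.108 (log2). In the FGF signalling list 0 members were lower with DESeq2 size factors, upper-quartile factors, mitochondrial and rRNA-like genes removed, no TMM factor, limma-voom, the block or without those 2 libraries, and 0 to 1 with 1 library left out. In that list 1 was higher with no TMM factor and with DESeq2 (Fgfr1) and 2 without a filter (Fgfr1 and Fgf21). FXR-induced genes had 1 lower without a filter (Vldlr), 0 higher without the 2 libraries and 0 to 1 with 1 library left out. Genes repressed by SHP and FGF15 had 3 lower without a filter (Cyp7a1, Cyp7b1 and Cyp8b1), 0 without the 2 libraries and 1 to 2 with 1 library left out. The log2 fold change of Hnf4a ranged from -0.015 (without NASH 2) to 0.111 with 1 library left out, and Nr5a2 from -0.10 (without NASH 3) to 0.503. Nr5a2 turned to -0.19 without the 2 libraries. Depth limits Klb most, with 14 to 48 counts per library.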
